A study of Mus musculus with 53 samples.

Results

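The genes of the PPAR group described here are a set of 10: the nuclear receptors Pparg and Ppard, their partner Rxra, the coactivator Ppargc1b, and 6 genes of lipid handling that these receptors are known to control, Cd36, Fabp4, Plin2, Angptl4, Cpt1a and Pdk4. They were chosen by gene name, and all 10 were found, each at 1 of the 23847 loci in the expression tables. RNA-seq was performed on mouse bone marrow-derived macrophages (BMDMs), which are macrophages grown from bone marrow cells in culture, of wild-type (WT) and Stat6-/- animals. Both strains were on a C57BL/6 background, the animals were 8 to 12 weeks old, and Stat6-/- was a full-body knockout, so every cell of the donor animal lacked functional STAT6. Marrow cells of all groups were differentiated for 6 days with L929 cell supernatant, a source of M-CSF. They were then left without cytokine or exposed to interleukin-4 (IL-4, 20 ng/ml), a cytokine whose receptor signals through STAT6 and turns macrophages toward the alternative state. There were control groups at 0, 1, 3, 6 and 24 h and IL-4 groups at 1, 3, 6 and 24 h in each genotype, 18 groups in all. WT groups held 4 samples, except 3 for IL-4 at 24 h, and each Stat6-/- group held 2, which made 35 WT and 18 Stat6-/- samples. Expression was given as FPKM, fragments per transcript length and per depth of the library, so levels of different genes can be compared per length.

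Peroxisome proliferator-activated receptors (PPARs) are ligand-activated transcription factors that sense fatty acids and their derivatives. They bind DNA as dimers with a retinoid X receptor at direct repeats of a short hexamer, and they recruit coactivators of the PGC-1 family. In macrophages PPARγ is known for the control of fatty acid uptake, binding, storage and oxidation, and its gene is a known target of IL-4 signalling.

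The cultures carried macrophage transcripts: all 7 macrophage markers found in the tables (Csf1r, Cd68, Emr1, Itgam, Mertk, Fcgr1 and Cx3cr1) had a median of at least 1 FPKM, and their summed level was between 2604 and 4485 FPKM. The sum was lowest in WT with IL-4 at 24 h, at 2604 to 2626 FPKM against 3277 to 3774 FPKM in the controls, where Emr1 (-1.20), Mertk (-1.89) and Fcgr1 (-2.34) were called lower on the log2 scale by the limma test described below. Fibroblast and lymphocyte markers summed to at most 1.16 and 1.35 FPKM in any sample. The 7 endothelial markers summed to 6.18 to 10.3 FPKM in WT with IL-4 at 3 h and to 14.7 to 19.2 FPKM at 6 h, against 2.38 to 3.54 and 2.34 to 3.68 FPKM in the controls. Of these markers Pecam1, which leukocytes also express, was called higher at both times (2.21 and 2.87), while Gpihbp1 was at 0 in all samples and Cdh5, Tek, Tie1 and Emcn had medians under 1 FPKM. The part of these markers in the changes at 3 and 6 h was not tested. Of 7 adipocyte markers, Lep was at 0 in all samples, Adipoq, Plin1, Cidec, Cfd and Pck1 each had a median under 1 FPKM, and Adipor2, an adiponectin receptor that many cell types express, had a median of 29 FPKM. Transcripts of 7 granulocyte markers were present in all samples, with S100a8 at a median of 190 FPKM. Their summed level was between 444 and 606 FPKM in WT controls at 24 h, between 225 and 323 FPKM in WT IL-4 samples at 24 h, and between 571 and 1022 FPKM in Stat6-/- samples. Stat6 itself was between 58.7 and 90.6 FPKM in the 35 WT samples and between 14.3 and 24 FPKM in the 18 Stat6-/- samples, so the targeted transcript was lower in every library labelled Stat6-/- but was not lost. Relative sequencing depth, recovered from loci with low values, was between 0.707 and 1.55 times that of the median sample.

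The pair of Stat6-/- replicate numbers differed in the same direction in all 9 groups for 8 of the 9 tested genes. The exception was Ppard (0.699 to 1.25 times, higher in replicate 1 in 5 of 9 groups). The share of all loci with such a steady direction was not computed. Over all tested loci, however, deviations from the group mean correlated between same-numbered Stat6-/- samples of different groups (mean r 0.714, from 0.425 to 0.9). Cd36 was 2.05 to 3.91 times as high in replicate 1 as in replicate 2 across the 9 Stat6-/- groups, and Fabp4 was 1.86 to 13.7 times as high. Angptl4 (1.99 to 3.25 times), Rxra (1.59 to 2.68 times) and Cpt1a (1.3 to 1.57 times) were also higher in replicate 1 in 9 of 9 groups. Plin2 was also higher there, by 1.05 to 2.39 times. Pparg and Ppargc1b went the other way, at 0.707 to 0.868 and 0.584 to 0.978 times the level of replicate 2. Between IL-4 and control samples of the same number and time, in contrast, the Stat6-/- ratios of Cd36 were between 0.893 and 1.11. The spread between these replicate numbers enters every test that follows, since 1 spread per gene was estimated over all samples.

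**Figure D1:**
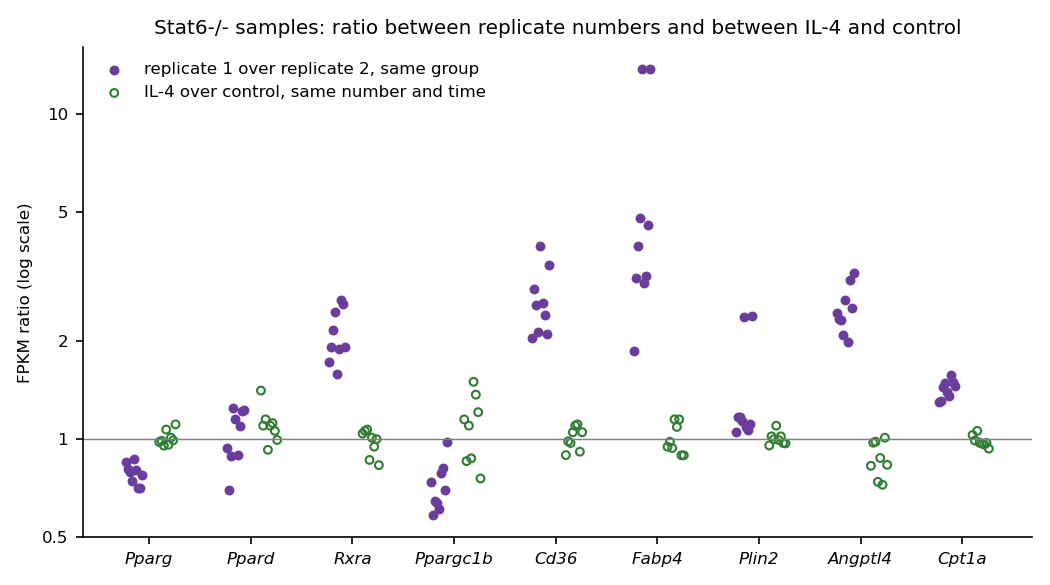
FPKM ratios on a log axis in the Stat6-/- samples for 9 genes; filled points give replicate 1 over replicate 2 in each of the 9 groups and open points give IL-4 over control for each same-numbered pair at 1, 3, 6 and 24 h. The filled points of Cd36, Fabp4, Angptl4, Rxra and Cpt1a all lie above 1 and those of Pparg all below 1, whereas the open points lie between 0.724 and 1.5.

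In WT cells at 0 h the 10 genes differed widely in level. Plin2, which coats lipid droplets, was highest with a mean of 674 FPKM, above 99.4% of the tested loci. Cd36, a fatty acid and oxidized lipoprotein receptor of the cell surface, followed with 379 FPKM. Then came Cpt1a (50.3 FPKM), Fabp4 (37.9 FPKM), Pparg (33.5 FPKM), Rxra (12.7 FPKM), Angptl4 (10.9 FPKM), Ppard (8.7 FPKM) and Ppargc1b (0.792 FPKM). The 4 WT samples at 0 h overlapped between Fabp4 and Pparg, between Rxra and Angptl4, and between Angptl4 and Ppard, so the order of these neighbours was within the spread. Pdk4, a kinase that shuts off pyruvate dehydrogenase and so favours fat as a fuel, was listed at 0 in 45 of the 53 samples and reached 0.0165 FPKM at most. It did not pass the filter of 1 FPKM in at least 1 sample, and tests were possible for 9 of the 10 genes.

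Promoter sequences are shown for Pparg, Cd36 and Plin2, the genes with a promoter entry whose WT samples with IL-4 all lay above the controls at 24 h. Each RefSeq window (GRCm38.p6) spans 250 bases before and 50 bases after a transcription start and is printed 5′ to 3′ on the strand of the gene. Capitals mark the nuclear receptor hexamer AGGTCA, its direct repeat with 1 free base between (DR1, AGGTCANAGGTCA) with up to 2 mismatches, and the spacing TTCNNNNGAA that STAT6 is known to prefer, each searched on both strands. A DR1 site may contain this hexamer, and the marks then run together.
Pparg, chr6:115360894-115361193, plus strand: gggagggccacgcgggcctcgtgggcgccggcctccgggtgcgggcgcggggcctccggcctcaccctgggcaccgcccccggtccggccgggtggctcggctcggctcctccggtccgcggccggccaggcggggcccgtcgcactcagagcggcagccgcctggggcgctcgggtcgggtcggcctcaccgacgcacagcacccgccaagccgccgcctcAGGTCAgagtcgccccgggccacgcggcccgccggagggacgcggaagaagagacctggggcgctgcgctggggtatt
Pparg, chr6:115362099-115362398, plus strand: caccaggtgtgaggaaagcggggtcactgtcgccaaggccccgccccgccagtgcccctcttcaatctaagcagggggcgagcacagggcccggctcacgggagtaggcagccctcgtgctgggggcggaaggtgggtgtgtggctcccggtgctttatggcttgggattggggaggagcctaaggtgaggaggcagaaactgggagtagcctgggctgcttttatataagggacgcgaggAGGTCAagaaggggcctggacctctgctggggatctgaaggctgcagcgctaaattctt
Cd36, chr5:17835847-17836146, minus strand: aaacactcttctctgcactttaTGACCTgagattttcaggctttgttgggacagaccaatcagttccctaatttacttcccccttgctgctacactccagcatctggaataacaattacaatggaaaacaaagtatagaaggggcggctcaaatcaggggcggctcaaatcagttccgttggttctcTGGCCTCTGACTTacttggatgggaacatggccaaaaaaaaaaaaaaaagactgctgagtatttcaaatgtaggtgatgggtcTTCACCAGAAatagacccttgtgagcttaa
Plin2, chr4:86670010-86670309, minus strand: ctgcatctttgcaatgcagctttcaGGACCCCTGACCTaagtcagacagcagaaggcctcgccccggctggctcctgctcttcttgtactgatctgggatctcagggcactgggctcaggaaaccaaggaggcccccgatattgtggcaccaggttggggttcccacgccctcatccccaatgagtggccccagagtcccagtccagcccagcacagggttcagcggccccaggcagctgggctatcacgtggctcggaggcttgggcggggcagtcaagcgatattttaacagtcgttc

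The hexamer AGGTCA lay at bases -28 to -23 and at bases -9 to -4 from the start in the printed Pparg windows, and the third Pparg window (chr6:115421816-115422115) held none. It was found in 6 of the 10 windows of these genes and in 16.3% of all 32851 promoter windows. The Cd36 window held a DR1 with 2 mismatches (AAGTCAGAGGCCA, on the opposite strand) at bases -63 to -51, and the Plin2 window held one (AGGTCAGGGGTCC, on the opposite strand) at bases -225 to -213. A window of Rxra (chr2:27709042-27709341) held the third (TGGTCATAGGCCA). DR1 with up to 2 mismatches was present in 3 of the 10 windows and in 3.86% of all windows. Allowing 3 mismatches left the count at 3 of 10 and raised the share of all windows to 24.6%, and the exact repeat was in 0 of 10 windows and in 0.0396% of all. TTCNNNNGAA occurred in 1 of the 10 windows, that of Cd36 at bases 20 to 29 after the start (TTCACCAGAA), and in 6.95% of all windows. With 3 free bases, TTCNNNGAA was in 0 of 10 and in 8.3% of all windows. Windows were given for Pparg, Ppard, Rxra, Cd36, Plin2, Pdk4 and Cpt1a. Fabp4, Angptl4 and Ppargc1b had no entry.

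To ask how these genes respond to IL-4, each IL-4 group was compared with its time-matched control on log2(FPKM + 1) with limma, with p-values adjusted by the Benjamini-Hochberg method over the 11146 tested loci. Calls required a change of at least 2-fold besides an adjusted p under 0.05, and a gene is said to have passed where the latter was met, whatever its fold. In WT at 1 h, 1 of the 9 tested genes was called lower (Angptl4) and 0 higher, where 0.395% of all tested loci were called lower and 1.09% higher. At 3 h, 1 was called higher (Ppargc1b; background 2.61%) and 0 lower (1.27%). At 6 h, 1 was called higher (Ppargc1b; 3.18%) and 1 lower (Angptl4; 2.36%). At 24 h, 3 were called higher, Pparg, Ppargc1b and Cd36, where 3.91% of all loci were, and 0 lower (4.58%). By adjusted p alone, 1 gene passed higher and 1 lower at 1 h (background 5.67% and 3.72%). At 3 h, 1 passed higher and 3 lower (16.4% and 12.5%), and at 6 h, 2 higher and 3 lower (22% and 19.2%). At 24 h, 3 passed higher and 1 lower (23.4% and 31.6%). At 1, 3, 6 and 24 h the 9 genes had a median log2 change of -0.12, -0.58, -0.22 and 0.36, beside -0.02, 0.01, 0.00 and -0.07 over all tested loci.

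**Figure D2:**
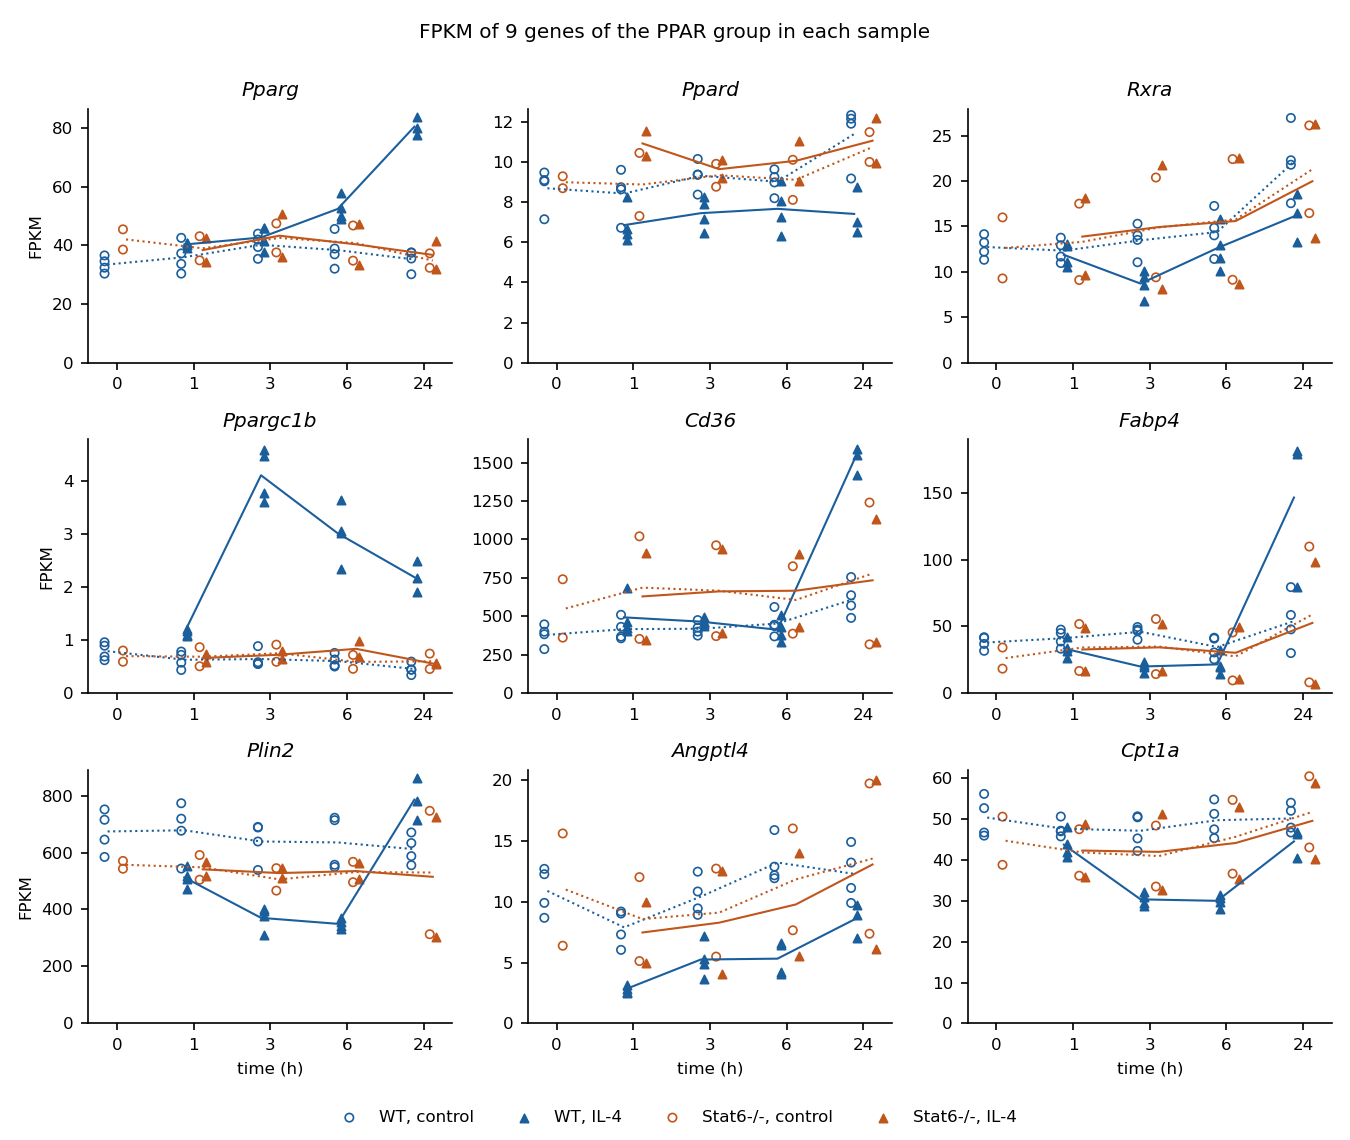
FPKM (linear axis from 0) of each sample for 9 genes against time, with open circles for controls, triangles for IL-4, blue for WT and orange for Stat6-/-; lines join group means, dotted for controls and solid for IL-4. In WT, IL-4 samples of Ppargc1b lie above the controls at each time, those of Pparg and Cd36 rise at 24 h, and those of Plin2 and Cpt1a lie below the controls at 3 and 6 h.

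Pparg (chr6:115361221-115490401, mm10), which encodes PPARγ, rose late in WT. At 24 h the 4 controls were at 35.5, 37.6, 37.5 and 30.1 FPKM (replicates 1 to 4), and the IL-4 samples were at 83.9, 80.1 and 77.5 FPKM (replicates 2 to 4). Every IL-4 sample was above the highest control, and the ratio of the means was 2.29. The log2 change was 1.18 (SE 0.13, adjusted p = 1.56e-09, limma). At 6 h the IL-4 samples were at 49, 57.7, 52.9 and 50 FPKM against 36.9, 45.6, 38.9 and 32 FPKM, again without overlap, for a log2 change of 0.45 (SE 0.12, adjusted p = 2.84e-03). At 1 and 3 h the groups overlapped, with log2 changes of 0.17 (adjusted p = 0.494) and 0.08 (adjusted p = 0.692). In RNA from whole cultures, more transcript per cell and more cells of an expressing type cannot be told apart. The granulocyte and macrophage marker sums were lower in the WT IL-4 samples at 24 h than in the controls (values above), and their part in the changes at 24 h was not tested.

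Ppard (chr17:28232754-28301469), the widely expressed PPARδ receptor, moved the opposite way at 24 h. Controls were at 12.4, 9.19, 12.2 and 11.9 FPKM and IL-4 samples at 6.5, 7.01 and 8.75 FPKM. The highest IL-4 sample stayed below the lowest control, which stood apart from the other controls. The log2 change of -0.56 (SE 0.12, adjusted p = 2.52e-04, limma) passed the test without reaching 2-fold. At 3 h the IL-4 samples (6.47 to 8.26 FPKM) also lay below the controls (8.38 to 10.2 FPKM), with a log2 change of -0.29 that missed the threshold (adjusted p = 0.0543). At 1 and 6 h the groups overlapped, with log2 changes of -0.26 and -0.22 (adjusted p = 0.183 and 0.132). In the fit with the replicate block, Ppard passed at 3 h (adjusted p = 6.39e-03) and 6 h (adjusted p = 0.0331).

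Rxra (chr2:27677201-27763319), which encodes the dimer partner RXRα, passed the test over all samples at no time. Its largest difference was at 3 h, with IL-4 samples at 8.54, 6.77, 9.44 and 10.1 FPKM and controls at 13.5, 11.1, 14 and 15.3 FPKM. All IL-4 samples were below all controls at 3 h, and the log2 change was -0.58 (SE 0.275, adjusted p = 0.117, limma). The SE takes in the gap between the Stat6-/- replicates. With WT samples alone in the fit, the SE was 0.14 and the adjusted p 9.71e-04. With the replicate number as a block, Rxra passed at 3 h (adjusted p = 2.79e-08) and at 6 h (-0.18, adjusted p = 0.0351). At 24 h the WT groups overlapped (IL-4 at 13.3, 16.5 and 18.6 FPKM, controls at 17.6 to 27 FPKM). The log2 change was -0.43 (adjusted p = 0.217), which passed with WT samples alone in the fit (adjusted p = 0.0122).

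Ppargc1b (chr18:61298136-61400431), the coactivator PGC-1β that is known for mitochondrial biogenesis and fat oxidation, had the earliest rise of the group and the highest fold. WT controls were below 1 FPKM at all times, between 0.34 and 0.96 FPKM over 20 samples. The IL-4 samples were at 1.09, 1.08, 1.21 and 1.18 FPKM at 1 h and at 4.59, 3.78, 3.61 and 4.48 FPKM at 3 h. They were at 3.03, 2.34, 3.07 and 3.64 FPKM at 6 h and at 2.49, 1.91 and 2.18 FPKM at 24 h. No IL-4 sample overlapped the controls at any time. Group means were 1.81, 6.4, 5 and 4.82 times those of the controls at 1, 3, 6 and 24 h. On the log2(FPKM + 1) scale, which understates changes of such a low gene, the changes were 0.40 (SE 0.10, adjusted p = 3.65e-03), 1.64 (4.4e-17), 1.32 (2.27e-14) and 1.13 (1.47e-11). With a pseudocount of 5 the change at 3 h was 0.69 and no longer reached 2-fold, at an adjusted p of 9.86e-19.

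**Figure D3:**
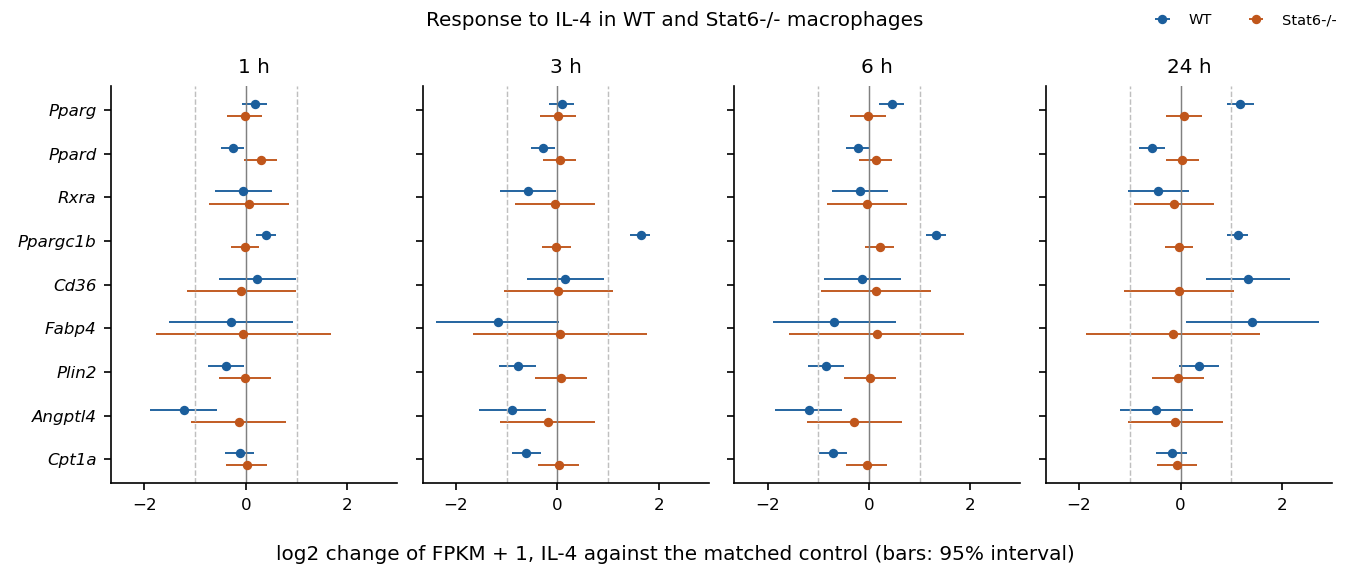
Log2 change of FPKM + 1 with IL-4 against the matched control for 9 genes at each time, blue for WT and orange for Stat6-/-, with bars for the 95% interval and dashed lines at a 2-fold change. In WT, Ppargc1b lies beyond 2-fold at 3, 6 and 24 h and Pparg at 24 h, whereas every Stat6-/- interval includes 0.

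Cd36 (chr5:17781690-17888959) rose at 24 h, from controls at 489, 637, 570 and 755 FPKM to IL-4 samples at 1419, 1587 and 1547 FPKM. The lowest IL-4 sample was well above the highest control, and the ratio of IL-4 to control for the same replicate number was 2.23, 2.78 and 2.05. The log2 change was 1.32 (SE 0.41, adjusted p = 5.94e-03, limma). The call was lost without WT replicate 3 of every group (adjusted p = 0.0674) and with Tukey's adjustment (adjusted p = 0.192). It was kept in a fit of the WT samples alone (SE 0.173, adjusted p = 1.21e-07). At 1, 3 and 6 h the IL-4 and control samples overlapped, with log2 changes between -0.14 and 0.23 and adjusted p-values of at least 0.807.

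Fabp4 (chr3:10204343-10208576), a cytosolic carrier of fatty acids, was lower with IL-4 early and higher late, but no time passed the test over all samples. At 3 h the IL-4 samples were at 23.6, 15.3, 21.4 and 19.2 FPKM and the controls at 46.5, 40, 47.6 and 49.5 FPKM, without overlap. The log2 change was -1.18 (SE 0.60, adjusted p = 0.149, limma). With the replicate number as a block, which the samples at 3 and 6 h allow, the same change had an SE of 0.26 and was called (adjusted p = 2.96e-04). With WT samples alone in the fit the adjusted p was 2.97e-04. At 24 h the IL-4 samples were at 79.2, 179 and 181.5 FPKM and the controls at 47.7, 30, 58.5 and 79.4 FPKM. The groups met, as replicate 2 of IL-4 was level with replicate 4 of the controls, while within each number IL-4 was higher, by 2.64, 3.06 and 2.29 times. The log2 change at 24 h was 1.41 (SE 0.65, adjusted p = 0.0624), and with WT samples alone it was called (adjusted p = 4.48e-05). At 1 and 6 h the groups overlapped, with log2 changes of -0.30 and -0.69 (adjusted p = 0.87 and 0.38), of which the latter passed with the block (adjusted p = 0.024).

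Plin2 (chr4:86656565-86670059) fell at 3 and 6 h. At 3 h the IL-4 samples were at 395, 376, 401 and 311 FPKM and the controls at 639, 688, 690 and 539 FPKM. At 6 h they were at 330.0, 356, 370.4 and 342 FPKM against 557, 722, 713 and 549 FPKM. The groups were apart at both times, with log2 changes of -0.78 (SE 0.18, adjusted p = 6.41e-04) and -0.85 (SE 0.18, adjusted p = 1.66e-04, limma), both short of 2-fold. At 24 h the IL-4 samples, at 715, 863 and 779 FPKM, were above the controls (555 to 670 FPKM), but the log2 change of 0.36 (SE 0.19) did not pass (adjusted p = 0.112). With WT samples alone in the fit it passed (adjusted p = 0.0104). At 1 h the log2 change was -0.39 (adjusted p = 0.202), which passed with WT samples alone (adjusted p = 0.0133).

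Angptl4 (chr17:33774900-33781575), a secreted inhibitor of lipoprotein lipase, had the earliest fall. At 1 h the IL-4 samples were at 2.84, 2.59, 3.17 and 2.49 FPKM and the controls at 9.04, 7.31, 9.2 and 6.05 FPKM. All IL-4 samples were at less than the lowest control, and the log2 change was -1.23 (SE 0.33, adjusted p = 8.94e-03, limma). This call was lost with any one WT replicate number left out of every group (adjusted p between 0.0665 and 0.11). The change then stayed between -1.17 and -1.30. A fit of the WT samples alone kept the call (SE 0.163, adjusted p = 8.7e-07). At 6 h the IL-4 samples were at 4.21, 4.08, 6.58 and 6.45 FPKM against 12.2, 11.9, 15.9 and 12.9 FPKM, with a log2 change of -1.19 (SE 0.33, adjusted p = 3.22e-03). At 3 h the change of -0.89 passed (adjusted p = 0.0365). At 24 h the IL-4 samples, at 7.01, 9.71 and 8.92 FPKM, were still below the controls, at 9.91 to 14.9 FPKM. The log2 change of -0.47 did not pass over all samples (adjusted p = 0.259) but did with WT samples alone (adjusted p = 0.0211).

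Cpt1a (chr19:3323301-3385733), which moves long-chain fatty acids into mitochondria for oxidation, fell together with Plin2. At 3 h the IL-4 samples were at 30.9, 28.7, 32.2 and 29.5 FPKM and the controls at 45.2, 42.1, 50.6 and 50.3 FPKM. At 6 h they were at 29.7, 28, 30.6 and 31.5 FPKM against 47.4, 45.3, 54.7 and 51.2 FPKM. Both times were without overlap, with log2 changes of -0.62 (SE 0.14, adjusted p = 6.12e-04) and -0.71 (SE 0.14, adjusted p = 7.18e-05, limma). At 1 and 24 h the changes of -0.12 and -0.17 did not pass (adjusted p = 0.714 and 0.353). Pdk4 (chr6:5483351-5496278) was listed at 0 in all 15 WT IL-4 samples, so no change could be computed for it.

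The Stat6-/- cells were compared in the same way to ask what remains of these responses without STAT6. In Stat6-/- cells 0 of the 9 genes were called or passed at any time, and the share of all tested loci that were called was 0% at each of 1, 3, 6 and 24 h and 0% for the mean of these times. By an unadjusted p under 0.05 in limma, 51, 131, 88 and 37 loci would have been counted at the 4 times. Each count is far below the share of 0.05 of all tested loci that chance alone would give. The fit leaves the gap between the replicate numbers in its spread (r of 0.791 to 0.9 between same-numbered Stat6-/- control and IL-4 samples). Its 0 calls thus do not show that no response remained. With the replicate block, 1, 1, 1 and 0 loci were called at the 4 times, and 0 of the 9 genes. With only 2 samples a group the intervals were wide for the genes that differed between the replicates. Averaged over the 4 times, the log2 change of Pparg was 0.01, with a 95% interval from -0.17 to 0.18, and that of Ppargc1b was 0.04 (-0.10 to 0.17). That of Cpt1a was -0.02 (-0.22 to 0.18). For Cd36 the average was 0.01 (-0.53 to 0.55), for Plin2 0.00 (-0.25 to 0.26) and for Angptl4 -0.18 (-0.65 to 0.29). Ppard was at 0.12 (-0.04 to 0.29) and Rxra at -0.04 (-0.43 to 0.36). For Fabp4 the interval ran from -0.86 to 0.86, so that for all 9 genes it left out a 2-fold change on average. At single times the intervals were wider. These intervals use the spread over all samples. With Stat6-/- samples alone in the fit the SE of the Fabp4 average was 0.737 instead of 0.424, and a 2-fold change was not left out. The SE was 0.461 instead of 0.266 for Cd36 and 0.389 instead of 0.231 for Angptl4. A 2-fold change was not clearly left out for these genes either. Angptl4 was lower with IL-4 than in the same-numbered Stat6-/- control in 7 of 8 pairs, with ratios from 0.724 to 1.01. Ppard was higher with IL-4 in 6 of 8 pairs (0.927 to 1.41) and Cpt1a in 2 of 8 (0.935 to 1.06). These pairs come from only 2 replicate numbers, and the share of all loci with such counts was not computed. With the replicate block the Angptl4 average did not pass (SE 0.0734, adjusted p = 0.715, limma).

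The difference between the WT and the Stat6-/- response was then tested as an interaction. At 1 h, 0 of the 9 genes were called, where 1.25% of all loci were. At 3 h, 1 was called (Ppargc1b; background 3.48%), and at 6 h, 1 (Ppargc1b; 4.41%). At 24 h, 2 were called, Pparg and Ppargc1b, where 6.85% of all loci were. The WT change of Ppargc1b exceeded that of Stat6-/- by 1.66 at 3 h (SE 0.17, adjusted p = 7.11e-10), by 1.11 at 6 h (adjusted p = 3.37e-06) and by 1.16 at 24 h (adjusted p = 2.39e-06, limma). At 6 h this fell just under 2-fold, to 0.99, without replicate 2 of the Stat6-/- controls or without replicate 1 of the Stat6-/- IL-4 samples. The WT change of Pparg exceeded that of Stat6-/- by 1.11 at 24 h (SE 0.22, adjusted p = 1.69e-04), and by 0.93 (adjusted p = 3.36e-03) without replicate 1 of Stat6-/- with IL-4. Ppard passed in the other direction at 24 h, with a difference of -0.60 (SE 0.205, adjusted p = 0.0274). The pass was lost without Stat6-/- replicate 1 or 2 of every group (differences of -0.55 and -0.64). With the replicate block Ppard passed at 24 h (-0.58, adjusted p = 2.58e-03) and at 1 h (-0.55, adjusted p = 0.0155, limma).

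For Cd36, Fabp4, Plin2, Angptl4, Rxra and Cpt1a, all higher in Stat6-/- replicate 1, the interaction passed at no time over all samples. The differences at 24 h were 1.35 for Cd36 (SE 0.67, adjusted p = 0.129) and 1.57 for Fabp4 (SE 1.07, adjusted p = 0.287). With Stat6-/- replicate 1 left out of every group the difference was 1.26 for Cd36 and 1.56 for Fabp4, and with replicate 2 left out 1.45 and 1.58. In those fits the lone Stat6-/- sample of a group is assumed to vary like the WT groups. When a single Stat6-/- library was left out, the group kept only the high or the low replicate and the values moved. Without replicate 2 of the Stat6-/- controls at 24 h they were 2.34 for Cd36, 3.38 for Fabp4 and 1.03 for Plin2. Without replicate 1 of the Stat6-/- IL-4 samples they were 2.24, 3.37 and 1.03, where Plin2 had been at 0.40 over all samples (adjusted p = 0.366). No calls are counted for these fits, which leave 1 sample in a group. At 6 h the differences of -0.86 for Plin2 (adjusted p = 0.0515) and -0.66 for Cpt1a (adjusted p = 0.0568) came close to the threshold, as did -0.85 and -0.64 at 3 h (adjusted p = 0.0742 and 0.0906). All of these passed in the fit with the replicate block: at 6 h with adjusted p = 5.9e-03 for Plin2 and 3.59e-09 for Cpt1a, and at 3 h with 8.72e-03 and 9.15e-09. For the Stat6-/- samples that block rests on only 2 numbers. It also gave adjusted p = 1.66e-03 for Rxra and 3.6e-03 for Angptl4 at 3 h, 7.18e-04 for Pparg and 1.62e-04 for Angptl4 at 6 h, and a call for Fabp4 at 3 h (-1.23, adjusted p = 0.0457). The difference for Angptl4 at 1 h was -1.09 (SE 0.57, adjusted p = 0.557), and with the block it was called (adjusted p = 3.59e-05, limma). The block also called the 24 h differences of Cd36 (1.28, adjusted p = 5.58e-06) and Fabp4 (1.585, adjusted p = 5.53e-03). At 1 and 24 h, however, the deviations of same-numbered WT samples from their group means did not all correlate above 0.1 (lowest 0.0265 and 0.0961). The lowest at 6 h was 0.105, so this limit hardly separates 6 h from 24 h.

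Control cells of the genotypes were compared over the mean of the 5 control times. Of the 9 genes 0 were called, where 0.287% of all loci were, and Plin2 alone passed, lower in Stat6-/- by 0.30 on the log2 scale (SE 0.10, adjusted p = 0.0255, limma). When the 5 times of each replicate number were first averaged, since samples of 1 number may share an animal, Plin2 did not pass (adjusted p = 0.452) and 1 locus was called in all. Without replicate 2 of the Stat6-/- controls at 24 h it did not pass either (-0.17, adjusted p = 0.171). For Cd36, Fabp4, Angptl4 and Rxra the direction of the difference depended on which Stat6-/- replicate was used. It also turned, with smaller differences, for Cpt1a, Pparg, Ppargc1b and Ppard. Cd36 averaged 958 FPKM over the controls of replicate 1 and 357.5 FPKM over those of replicate 2, while the 4 WT numbers averaged 377, 446, 451 and 549 FPKM. One Stat6-/- number was thus above and the other below all WT numbers. With replicate 2 left out Cd36 was called higher in Stat6-/- (log2 difference 1.08, adjusted p = 3.5e-08), and with replicate 1 left out it passed lower (-0.32, adjusted p = 0.0219). Fabp4 averaged 59.3 and 13.3 FPKM in the Stat6-/- numbers and 42.8, 32, 44.6 and 51.2 FPKM in WT. With replicate 1 left out Fabp4 was called lower (-1.63, adjusted p = 1.22e-08), and with replicate 2 left out the difference was 0.40 (adjusted p = 0.093). Angptl4 passed lower without replicate 1 (-0.67) and higher without replicate 2 (0.45), as did Rxra (-0.45 and 0.45).

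Time in culture alone was examined in the WT controls, at 24 h against 0 h. Of the 9 genes 0 were called, where 1.13% of all loci were. Ppard passed higher, by 0.35 on the log2 scale (adjusted p = 0.0299), and Ppargc1b lower, by -0.30 (adjusted p = 0.0286, limma). Rxra was at 12.2, 11.3, 13.2 and 14.2 FPKM at 0 h and at 22.3, 17.6, 21.8 and 27 FPKM at 24 h, without overlap, for a log2 difference of 0.74 that missed the threshold (adjusted p = 0.0562). Cd36 was at 286 to 447 FPKM at 0 h and at 489 to 755 FPKM at 24 h, a log2 difference of 0.69 (adjusted p = 0.206). In a fit of the WT samples alone both Rxra (adjusted p = 1.29e-04) and Cd36 (adjusted p = 1.47e-03) passed, short of 2-fold. At 1, 3 and 6 h against the same 0 h samples no gene of the group passed.

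The WT response itself changed between times. From 1 to 3 h, 1 of the 9 genes was called (Ppargc1b; background 1.61%), whose response grew by 1.24 (SE 0.14, adjusted p = 1.15e-08, limma). From 3 to 6 h, 0 were called (0.449%). From 6 to 24 h, 2 were called, Cd36 and Plin2, where 6.06% of all loci were. The response of Plin2 went from below to above the controls, a gain of 1.21 (SE 0.26, adjusted p = 4.9e-04). That of Cd36 grew by 1.46 (SE 0.55, adjusted p = 0.0447). The call was lost when most single WT samples were left out, as without replicate 4 of the 6 h controls (adjusted p = 0.0818). A fit of the WT samples alone called this gain of Cd36 (adjusted p = 9.63e-06). The response of Pparg grew by 0.73 (adjusted p = 1.93e-03) and that of Cpt1a by 0.54 (adjusted p = 0.0465). Fabp4 had the widest gain, 2.10, with an SE of 0.88 (adjusted p = 0.0725), which was called with WT samples alone in the fit (adjusted p = 3.13e-05).

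The wider pathway was described with 4 gene lists, which include the members that belong to them. Apart from Acsl3, the other genes named from the lists were chosen after their values were seen, from those that passed. Of 16 listed receptors and coregulators 13 were tested, and at 24 h 3 passed higher and 8 lower, where 23.4% of all loci passed higher and 31.6% lower. The 3 were Pparg, Ppargc1b and Pprc1, a further coactivator of the PGC-1 family, which was higher by 0.80. The lower ones included the receptor Rxrb (-0.61), the p160 coactivators Ncoa1 (-0.38), Ncoa2 (-0.35) and Ncoa3 (-0.42) and the corepressors Nrip1 (-0.31) and Ncor1 (-0.26), and 0 of them were called. The list's median log2 change at 24 h was -0.31, beside -0.07 over all tested loci. Ncoa3 had passed higher at 3 h, by 0.68, and at 6 h, by 0.58.

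Of 14 genes of fatty acid uptake and activation 11 were tested. At 6 h 1 passed higher and 4 lower (22% and 19.2% of all loci), with a list median of -0.36. The only gene outside the group of 10 that was called in any list was Acsl3, an acyl-CoA synthetase of lipid droplets, which fell by 1.11 at 6 h (SE 0.12, adjusted p = 1.6e-09, limma). Its WT change differed from that in Stat6-/- by -1.10 (adjusted p = 2.26e-04). The others that passed lower at 6 h were the fatty acid transporters Slc27a1 (-0.70) and Slc27a4 (-0.40) and the synthetase Acsl1 (-0.36), and Acsl5 passed higher (0.41). At 24 h 3 passed higher and 1 lower (23.4% and 31.6% of all loci), with a median of 0.13. Besides Cd36 these were Lpl, the lipoprotein lipase (0.57), and Acsl5 (0.35), and Acsl1 was lower (-0.47).

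Of 18 genes of lipid droplets and lipolysis 11 were tested, and the 6 h shares of all loci were again 22% and 19.2%. At 6 h 2 passed higher, Dgat2 of triglyceride synthesis (0.65) and Hilpda, a lipase inhibitor (0.59), and 4 lower, which were Plin2, Angptl4, Dgat1 (-0.28) and the lysosomal lipase Lipa (-0.83). At 24 h 3 passed higher and 2 lower, beside 23.4% and 31.6% of all loci. The higher ones were Abhd5, the coactivator of adipose triglyceride lipase (0.86), Hilpda (0.63) and Plin3 (0.45), and the lower ones were the lipase Lipe (-0.43) and Dgat1 (-0.27). The median of this list was -0.04 at 6 h and 0.11 at 24 h.

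Of 18 genes of oxidation and fuel choice 14 were tested. At 24 h 7 passed higher and 1 lower, with a list median of 0.22, where 23.4% and 31.6% of all loci passed. Among those higher were the β-oxidation genes Hadha (0.64), Hadhb (0.52), Ech1 (0.54), Acadl (0.32) and Acadm (0.24), and Ucp2 (0.27), a carrier of the inner mitochondrial membrane. The lower one was Pdk2, a pyruvate dehydrogenase kinase, which fell by 0.98. At 6 h 2 passed higher, Hadhb (0.59) and Acadm (0.24), and 3 lower, which were Cpt1a, Ucp2 (-0.36) and Acadl (-0.28). In Stat6-/- cells, averaged over the 4 times, 0 genes of any of the 4 lists passed, with list medians between -0.03 and 0.01.

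**Figure D4:**
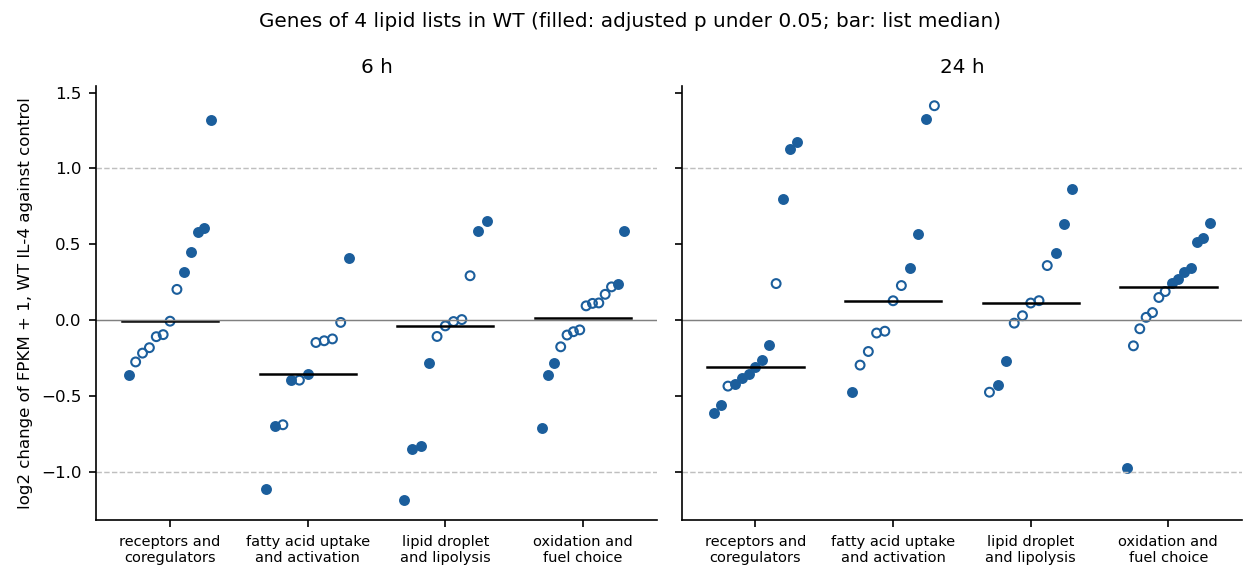
Log2 change of FPKM + 1 with IL-4 in WT at 6 h and 24 h for each tested gene of 4 lists, filled where the adjusted p was under 0.05, with a bar at the list median and dashed lines at a 2-fold change. The medians of uptake and activation and of oxidation and fuel choice are higher at 24 h (0.13 and 0.22) than at 6 h (-0.36 and 0.02), and that of receptors and coregulators is lower (-0.31 against -0.01).

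The loci whose 18 group means of log2(FPKM + 1) were most like those of Pparg were Flrt2 (Pearson's r = 0.959), Scd2 (0.958), Cd151 (0.954), Cops7b (0.946) and Pi4ka (0.94). For Angptl4 they were C5ar2 (0.89), Gse1 (0.88), Csnk1e (0.88), Pdgfb (0.878) and Zfp775 (0.875). The group means share the same libraries, so these coefficients are descriptions. Of the loci like Pparg, Flrt2 rose by 2.98 and Scd2, a stearoyl-CoA desaturase, by 2.93 in WT at 24 h. Cd151 rose by 1.09, Pi4ka by 1.31 and Cops7b by 0.54. Pdk4 was not ranked, since it was not tested.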

How the data were processed

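RNA-seq was analysed in 53 samples of 18 groups, taken from the labels. The authors mapped reads to mm10 with TopHat2 (2.0.7 per the processing notes) and estimated FPKM per gene with Cufflinks (2.0.2), and the values were deposited as 1 FPKM table per sample. The gene annotation is not given in the sources used here. FPKM keep no total count, so precision rests on the spread between samples. The paper gives 4 individual animals for WT and n = 2 for Stat6-/- over the time course, by which samples of different groups share animals. Whether a replicate number marks the same animal across groups is not stated. The fit without a block treats all 53 samples as independent, and p-values measure the spread between these samples. Replicate 1 of WT with IL-4 at 24 h was not analysed here.

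The tests covered the 11146 of 23847 loci that reached 1 FPKM in any sample. Group means of log2(FPKM + 1) were fitted over all samples with limma 3.58.1 (R 4.3.3) with a mean-variance trend (35 residual degrees of freedom), with the Benjamini-Hochberg adjustment over these loci within each contrast. The script was tested on simulated data. The members, gene lists and tests were chosen with earlier results of these data known. The rule for named genes took the members, Stat6, up to 4 called genes of each list (Acsl3 alone met this) and the 5 loci most like Pparg and Angptl4 in their group means. Cell type markers and the other list genes were named beyond this rule. Motifs were searched on both strands of RefSeq promoter windows (GRCm38.p6). At most 2.57% of the 50-base stretches of a tested member's transcripts (Plin2) were shared with another gene.

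The correlation of deviations from the group mean between the control and the IL-4 sample of the same number was over 0.1 for every WT pair at 3 h (0.316 to 0.479) and at 6 h (0.105 to 0.561). At 1 h (0.0265 to 0.261) and 24 h (0.0961 to 0.234) it was not for every pair, and Stat6-/- had only 2 numbers (0.791 to 0.9). Alternatives were other pseudocounts (0.1 and 5), filters, scalings, samples in the fit, the replicate number as a block, Tukey's adjustment, no fold threshold, and leaving out each sample or replicate number.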

Additional observations from a re-analysis of the deposited data

Results flagged for a closer look

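The WT response to IL-4 differed from the Stat6-/- response, in limma's interaction test and by at least 2-fold, for Ppargc1b at 3 h (log2 difference 1.658, adjusted p = 7.11e-10), at 6 h (1.11, adjusted p = 3.37e-06) and at 24 h (1.164, adjusted p = 2.39e-06). It also differed for Pparg at 24 h (1.108, adjusted p = 1.69e-04).

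A single sample stood apart from the other 3 in 2 of the 72 combinations of gene and group that could be examined, where chance gives about 1 in 20. Replicate 2 of the WT controls at 24 h had 9.19 FPKM of Ppard, beside 11.9, 12.2 and 12.3 FPKM. Replicate 1 of the WT controls at 3 h had 0.887 FPKM of Ppargc1b, beside 0.55, 0.552 and 0.583 FPKM.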

How the results depend on the processing

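Counts are of the 9 tested genes called. No log2 change called over all samples turned its direction under the alternatives run. Between genotypes, where none was called, the direction turned with the Stat6-/- replicate left out for every tested gene but Plin2. Without replicate 2 and without replicate 1 the differences were 1.08 and -0.32 for Cd36 and 0.40 and -1.63 for Fabp4. They were 0.45 and -0.67 for Angptl4, 0.45 and -0.45 for Rxra, and 0.09 and -0.37 for Cpt1a. Those of Pparg (-0.03 and 0.26), Ppargc1b (-0.09 and 0.16) and Ppard (-0.01 and 0.03) were smaller. With a pseudocount of 5 the counts fell to 0 in WT at 1, 3 and 6 h, to 0 in the interaction at 3 and 6 h and in the response from 1 to 3 h, and to 1 in the interaction at 24 h. A pseudocount of 0.1 gave 2 in WT at 3 h, with Angptl4 (-1.01) added. Without the fold threshold the counts were 2, 4 and 5 in WT at 1, 3 and 6 h, 1 between genotypes, 2 in WT controls from 0 to 24 h and 4 in the response from 6 to 24 h. Without a filter or with quantile normalization the last was 1, as Cd36 missed the threshold (adjusted p = 0.0937 and 0.0827). Tukey's adjustment left 0 at 1 h and 1 at 6 h, as Angptl4 did not pass (0.0642 and 0.0838). Fits of only the compared samples or of WT alone gave 2 at 3 h, with Fabp4.

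With the replicate block, the counts were 2 in WT at 3 h and 4 at 24 h, 1, 2 and 4 in the interaction at 1, 3 and 24 h, and 3 in the response from 6 to 24 h. The added gene was Fabp4, besides Angptl4 in the interaction at 1 h and Cd36 in that at 24 h. The block also called more of all tested loci. In WT at 3 and 24 h it called 445 and 989 loci, beside 433 and 947 without it. In the interaction at 1, 3 and 24 h it called 172, 454 and 976, beside 139, 388 and 763. In the response from 6 to 24 h it called 782, beside 676. The genotype comparison could not be fitted with the block.

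Leaving out 1 sample or replicate number gave 0 to 1 call in WT at 1 h, 1 to 2 at 3 h and 2 to 4 at 24 h. The response from 6 to 24 h had 1 to 2. For the interaction and the genotypes counts are not given, since leaving out a Stat6-/- sample left only 1 in its group. The second call at 3 h came without IL-4 replicate 3 (Angptl4, -1.03). The fourth at 24 h was Fabp4, without control replicate 4 or IL-4 replicate 2. The causes were not tested. FPKM without counts and 2 Stat6-/- samples per group limit what could be resolved.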
